A study of Mus musculus with 2 samples.

Results

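The genes described here build the kinetochore, run the spindle checkpoint and the spindle, and divide the cell at the end of mitosis. The list holds 37 genes named by function, of 55536 in the table, and each symbol matched 1 Ensembl identifier in GENCODE mouse release M21. Mki67 and Top2a, which act on mitotic chromosomes as a whole, are part of the list as general markers of dividing cells. RNA was sequenced from mammary tumors of MMTV-PyVT mice, in which the mouse mammary tumor virus promoter directs expression of polyoma middle T antigen, an oncogene, to mammary epithelium. The C3G group received cyanidin-3-glucoside, which is a plant anthocyanin, and the DMSO group received the vehicle dimethyl sulfoxide. Dosing started at the stage of ductal hyperplasia and tumors were collected at a preset burden, so both groups carried the transgene and were sampled by tumor burden and not at a set time. There was 1 library in each group, and the labels do not say whether a library came from a single mouse or a pool.

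At mitosis, the histone variant CENP-A marks the centromere, and the inner kinetochore proteins assemble on it. The outer kinetochore, with the NDC80 complex and the scaffold KNL1, grips spindle microtubules. Kinetochores that are not yet attached recruit MAD and BUB proteins, which hold back CDC20, the activator of the anaphase-promoting complex (APC/C). When all chromosomes are attached, the APC/C marks securin and cyclin B for destruction and the cell divides. Most of these genes are transcribed mainly in the G2 and M phases of the cell cycle, and their RNA is commonly used as a measure of dividing cells in tumors.

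Values were deposited as TPM, a transcript abundance scaled by gene length and library total. The length was the union of all annotated exons, which can exceed that of the RNA made. Orders and ratios of level between different genes therefore depend on the annotated lengths. The C3G library held 16081110 gene-assigned reads and the DMSO library 12192275, recovered from the TPM values. With 1 library per group there is no replicate check and no test, and a difference between the libraries cannot be told apart from a difference between individual mice or tumors. Intervals in parentheses after a ratio are exact 95% intervals for counting error alone. The luminal epithelial markers of the labelled tissue were abundant, with Krt8 at 1420 TPM in the C3G tumor and 1890 TPM in the DMSO tumor. In the C3G library all 6 adipocyte markers and all 6 endothelial markers had the higher level. The 6 adipocyte markers summed to 351 TPM in the C3G tumor and 50.9 TPM in the DMSO tumor, and the 6 endothelial markers to 68.1 TPM in the C3G tumor and 23.5 TPM in the DMSO tumor. All 6 T and NK cell markers were lower in the C3G tumor, with sums of 12.9 TPM in the C3G tumor and 42.6 TPM in the DMSO tumor. Of the 5 B and plasma cell markers, 2 averaged 1 TPM or more. Igkc, which carried most of their sum, stood at 11.97 TPM in the C3G tumor and 65.5 TPM in the DMSO tumor. None of these lists shares a gene with the mitotic list, and their part in the results below was not tested.

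Every mitotic gene of the list had a higher TPM in the C3G tumor, although Zwint had a log2 ratio of -0.0019 once ratios were centred on genes averaging 10 TPM or more, a shift of 0.12. The 37 genes summed to 1086 TPM in the C3G tumor and 659 TPM in the DMSO tumor, a ratio of 1.65. As a share of all gene-assigned reads they took 0.182% in the C3G library (Wilson 95% interval 0.180 to 0.184%) and 0.115% in the DMSO library (0.113 to 0.117%). In bulk tissue, fewer cells of a type and less RNA per cell cannot be told apart, so these shares do not separate the number of mitotic cells from the RNA in each. The ratio of single genes ran from 1.09 for Zwint to 2.81 for Knl1, with a median of 1.65. It was at least 2 for 8 genes, between 1.5 and 2 for 17 and under 1.5 for 12.

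The same values were set against all genes on the scale log2((C3G TPM + 1)/(DMSO TPM + 1)), which understates the change of low genes. All 37 genes had a log2 ratio above 0, whereas 58.9% of the 17468 genes with a mean of at least 1 TPM did. Their median log2 ratio was 0.70, against 0.10 for all those genes, and 90.9% of all those genes lay below the median of the list. A gene was called higher by size when its log2 ratio reached 1 and its higher level reached 5 TPM. All 37 genes reached 5 TPM in the C3G library, and 5 of them were called higher by size, beside 3.10% of the 12780 genes that could be called. These were Ect2, Cdc20, Knl1, Cenpa and Plk1. At a smaller size, a log2 ratio of 0.5, 27 of the 37 were called higher, beside 15.9% of all genes. None was lower at either size, where 4.30% and 11.2% of all genes were. The count of 5 moved with the pseudocount, to 8 genes at 0.1 and to 1 gene, Cdc20, at 5. The share of all callable genes moved too, to 3.88% at 0.1 and to 1.40% at 5. Of all calls by size, 41.9% were upward, and 31.0% after centring.

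**Figure D1:**
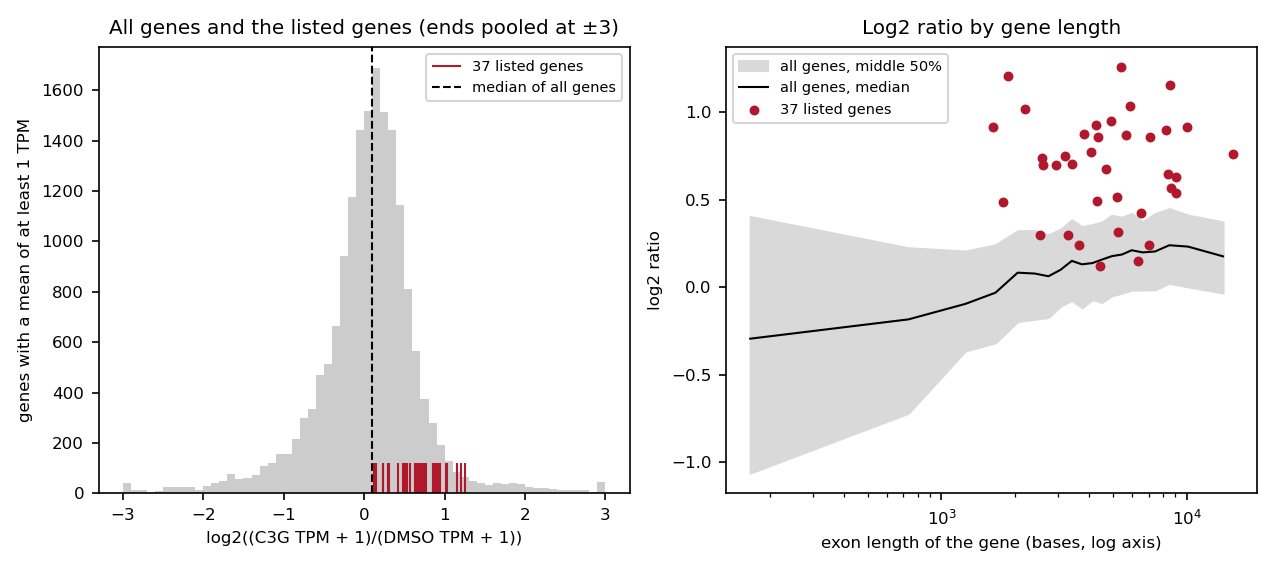
Left, the log2 ratio of C3G over DMSO for 17468 genes with a mean of at least 1 TPM (grey histogram, vertical axis in genes), with a red line for each of the 37 mitotic genes and a dashed line at the median of all genes. Right, the log2 ratio against exon length in bases (log axis), where the grey band runs from the lower to the upper quartile of genes with a mean of at least 5 TPM in 20 length classes. Of the 37 genes, 30 lie above 0.38, the upper quartile of the genes in the left panel.

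Gene length moved with the ratio over the whole table, since Spearman's correlation of exon length with log2 ratio was 0.23 across 12107 genes with a mean of at least 5 TPM, which are not independent replicates. The mitotic genes had a median exon length of 4677 bases, against 3924 bases for those genes. Among the 37 genes themselves the correlation with length was -0.01 and that with GC content 0.02. With the smooth trend in length and GC content removed, the median of the list was 0.57 and 35 of 37 genes stayed above 0. The exceptions were Zwint and Nuf2, at -0.09 each.

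Promoters of mitotic genes are known for a cell cycle genes homology region, with the letters TTTGAA or TTTAAA, which is read by the MuvB complex, and for CCAAT boxes, which bind NF-Y. RefSeq windows of 300 bases, from 250 bases before to 50 after the start site on build GRCm38.p6, were matched for 33 of the 37 genes, all but Aurkb, Incenp, Spc24 and Tpx2. The homology letters stood in 24 of the 33 windows (72.7%), on either strand. They stood in 19.7% of windows of the 11111 genes with both a RefSeq window and a mean of at least 1 TPM. Of all 27025 genes with a window, 27.8% held them. CCAAT, also on either strand, stood in 25 of 33 (75.8%), in 38.5% of the expressed genes and in 37.9% of all genes with a window. The 2 motifs can share an end base. Both motifs stood together in 19 of the 33 windows (57.6%), in 7.97% of windows of the expressed genes and in 10.8% of all windows. A match is a run of letters and not a measured site.

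The windows of the 3 genes with the highest log2 ratio and the 2 with the lowest are shown, since they span the range of the list. Capitals mark the homology letters and CCAAT on either strand. They lie at chr3:27153829-27154128 on the minus strand for Ect2, chr4:118437294-118437593 on the minus strand for Cdc20, chr2:119046869-119047168 on the plus strand for Knl1, chr1:169531415-169531714 on the minus strand for Nuf2 and chr10:72654596-72654895 on the plus strand for Zwint.
Ect2: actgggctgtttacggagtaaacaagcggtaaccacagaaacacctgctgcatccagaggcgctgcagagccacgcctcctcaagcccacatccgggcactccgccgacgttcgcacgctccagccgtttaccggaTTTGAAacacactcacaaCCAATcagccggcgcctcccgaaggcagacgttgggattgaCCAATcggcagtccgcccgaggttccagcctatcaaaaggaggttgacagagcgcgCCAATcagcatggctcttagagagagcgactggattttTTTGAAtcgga
Cdc20: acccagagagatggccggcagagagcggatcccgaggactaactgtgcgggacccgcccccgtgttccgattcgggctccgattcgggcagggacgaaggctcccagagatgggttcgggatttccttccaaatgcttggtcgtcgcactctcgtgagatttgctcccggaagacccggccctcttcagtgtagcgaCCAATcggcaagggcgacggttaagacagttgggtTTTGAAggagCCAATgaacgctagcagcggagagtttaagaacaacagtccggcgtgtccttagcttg
Knl1: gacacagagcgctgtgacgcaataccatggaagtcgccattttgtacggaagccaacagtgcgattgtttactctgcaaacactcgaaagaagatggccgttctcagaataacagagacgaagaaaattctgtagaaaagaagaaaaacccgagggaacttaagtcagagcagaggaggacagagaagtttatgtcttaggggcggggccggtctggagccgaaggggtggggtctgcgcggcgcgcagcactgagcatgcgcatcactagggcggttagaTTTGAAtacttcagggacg
Nuf2: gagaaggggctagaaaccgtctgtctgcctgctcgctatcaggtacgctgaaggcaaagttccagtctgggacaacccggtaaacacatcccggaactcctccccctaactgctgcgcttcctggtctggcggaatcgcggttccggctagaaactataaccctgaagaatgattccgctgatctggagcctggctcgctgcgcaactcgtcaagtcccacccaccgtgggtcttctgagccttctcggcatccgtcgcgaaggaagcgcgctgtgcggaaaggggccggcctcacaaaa
Zwint: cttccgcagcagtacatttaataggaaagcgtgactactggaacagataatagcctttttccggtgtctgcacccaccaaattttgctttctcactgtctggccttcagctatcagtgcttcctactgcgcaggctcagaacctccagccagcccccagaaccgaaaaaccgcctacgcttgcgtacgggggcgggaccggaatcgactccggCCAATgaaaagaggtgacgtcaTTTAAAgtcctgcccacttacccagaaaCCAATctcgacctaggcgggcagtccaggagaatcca
In the Cdc20 window the homology letters began at position -18 from the start site and lay between a pair of CCAAT boxes. The Ect2 window held 3 CCAAT boxes. The Zwint window held both motifs as well, with the homology letters at position -15, although Zwint had the lowest log2 ratio of the list. Nuf2, the next lowest, had none of these letters, and nor did Nusap1 and Mad2l1, whose log2 ratios were 0.77 and 0.64. Over the 33 genes the median log2 ratio was 0.73 for the 24 with the homology letters and 0.77 for the 9 without them. It was 0.86 for the 25 with CCAAT and 0.64 for the 8 without.

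**Figure D2:**
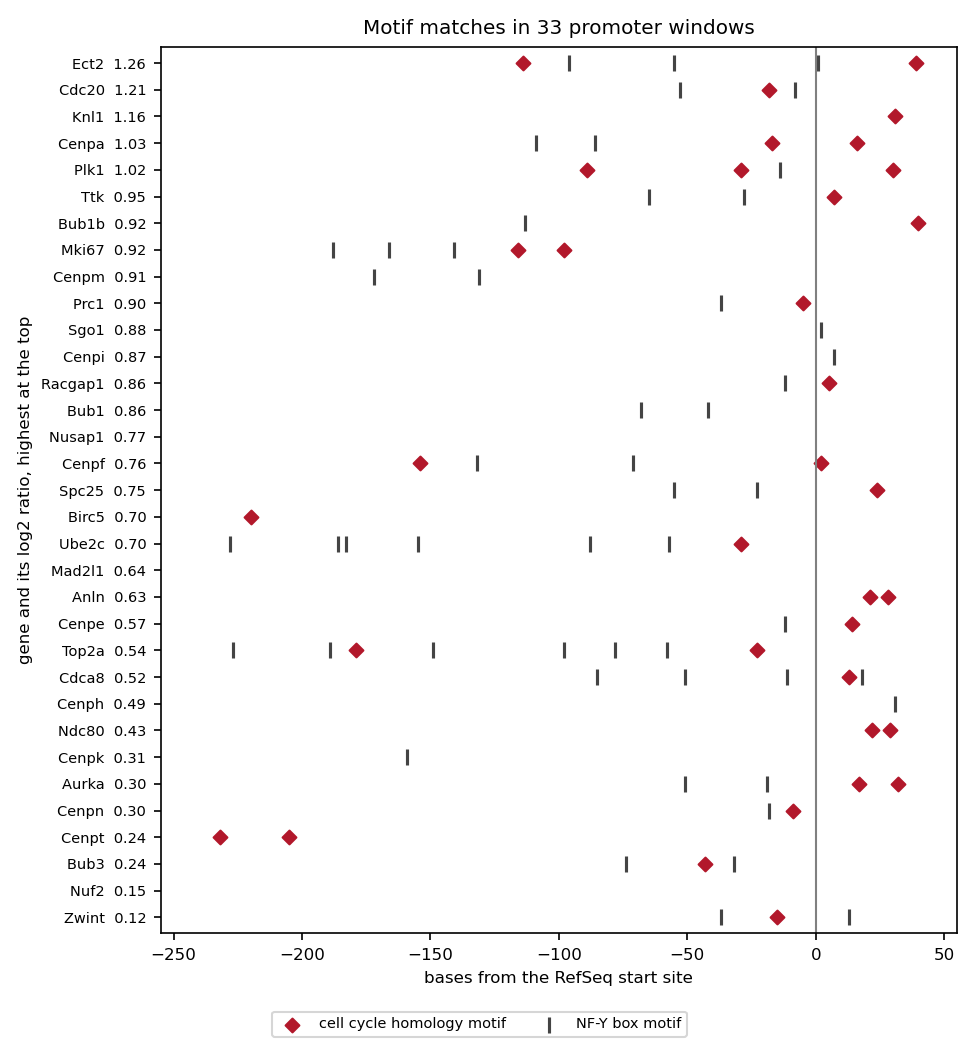
Positions of the cell cycle homology motif (red diamonds) and the NF-Y box motif (dark bars) in the promoter windows of 33 genes, in bases from the RefSeq start site, with genes ordered by log2 ratio from 1.26 for Ect2 at the top to 0.12 for Zwint at the bottom. Windows with the homology motif occur along the whole order, 24 in all.

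Of the general markers of dividing cells, Mki67 came first in abundance and Top2a ranked 6 in each library. Mki67, which coats mitotic chromosomes and gives the Ki-67 antigen, stood at 108 TPM in the C3G tumor and 56.8 TPM in the DMSO tumor, and was the most abundant gene of the list in each library. Its ratio of 1.90 (1.82 to 1.99) rests on 5970 reads in the C3G library and 2476 in the DMSO library and is the most closely bounded by counting. Top2a, the topoisomerase that untangles sister chromatids, stood at 46.6 TPM in the C3G tumor and 31.8 TPM in the DMSO tumor. At 1.47 (1.37 to 1.57) its interval lay wholly below that of Mki67, so these markers gave different sizes for the same pair of tumors.

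**Figure D3:**
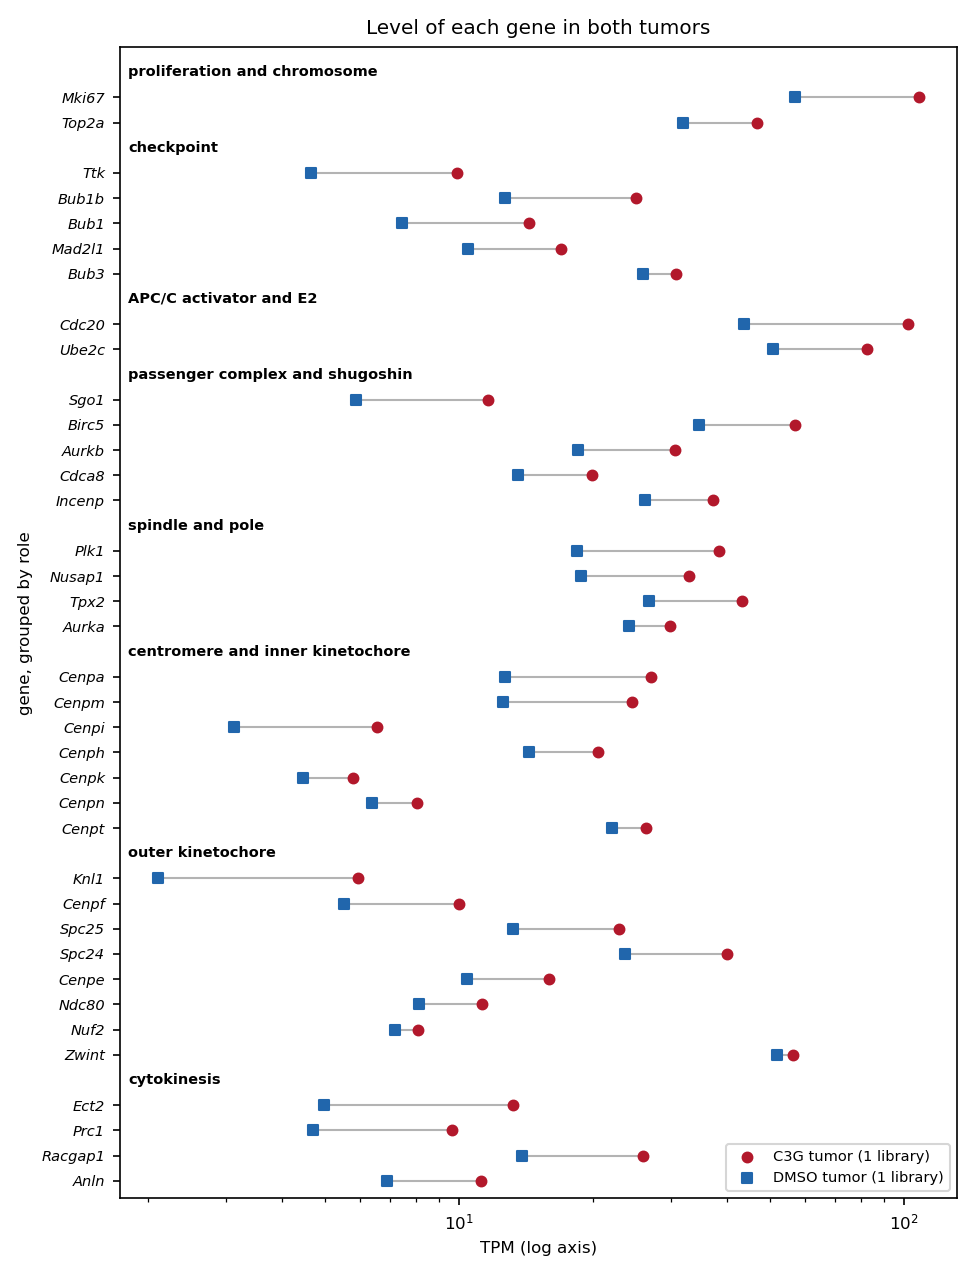
Level of each of the 37 genes in TPM (log axis) in the C3G tumor (red circles) and the DMSO tumor (blue squares), 1 library each, grouped by role and joined by a line. The C3G level lies to the right for every gene, with Mki67 at 108 TPM in the C3G tumor and 56.8 TPM in the DMSO tumor at the top end, and Knl1 at 5.92 TPM in the C3G tumor and 2.11 TPM in the DMSO tumor among the lowest.

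The spindle checkpoint genes were uneven, with Bub3 apart from the rest. Ttk, the kinase that starts checkpoint signalling at unattached kinetochores, stood at 9.88 TPM in the C3G tumor and 4.64 TPM in the DMSO tumor, a ratio of 2.13 (1.68 to 2.71). Bub1, a kinase bound to KNL1, stood at 14.3 TPM in the C3G tumor and 7.47 TPM in the DMSO tumor, 1.92-fold higher (1.57 to 2.35). Bub1b, which encodes the CDC20-binding inhibitor BUBR1, was close to Bub1 in size, at 24.9 TPM in the C3G tumor and 12.7 TPM in the DMSO tumor. Mad2l1, whose product MAD2 changes shape to capture CDC20, stood at 17.0 TPM in the C3G tumor and 10.5 TPM in the DMSO tumor, 1.62-fold higher (1.43 to 1.83). Bub3, the partner that carries BUB1 and BUBR1 to the kinetochore, differed least, at 30.7 TPM in the C3G tumor and 25.9 TPM in the DMSO tumor, a ratio of 1.19 (1.08 to 1.30). Its interval did not reach those of the other 4 genes. The TPM of Bub3 was therefore 2.14 times that of Bub1 in the C3G library and 3.46 times in the DMSO library. Such a ratio does not depend on the scaling between libraries, but its size depends on the annotated exon lengths. This pair and the other within-library pairs below were chosen after their values were seen.

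The target of the checkpoint was higher by size. Cdc20 stood at 102 TPM in the C3G tumor and 43.6 TPM in the DMSO tumor, a ratio of 2.34 (2.07 to 2.64), and moved to rank 2 of the list by level in the C3G tumor, against rank 4 in the DMSO tumor. Ube2c, the ubiquitin-conjugating enzyme that starts chains for the APC/C, stood at 82.7 TPM in the C3G tumor and 50.7 TPM in the DMSO tumor, 1.63-fold higher (1.48 to 1.81). By TPM the order of the pair turned. The Cdc20 level was 1.23 times that of Ube2c in the C3G library and 0.860 times in the DMSO library. Exons of Ube2c overlap those of Tnnc2 on the other strand by 592 bases, 22.8% of the Ube2c exon length, and the library kit does not mark strand. Tnnc2 was listed at 0 in both libraries, which does not show how reads in the shared bases were counted. Cdc20 shares 53 bases with Elovl1.

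The chromosomal passenger complex, which corrects wrong attachments and later sets the cleavage site, had ratios from 1.42 to 1.65. Its kinase Aurkb stood at 30.6 TPM in the C3G tumor and 18.5 TPM in the DMSO tumor, a ratio of 1.65 (1.41 to 1.94). Birc5, which encodes survivin, had nearly the same ratio at a higher level, 57.0 TPM in the C3G tumor and 34.6 TPM in the DMSO tumor. Cdca8, which encodes borealin, stood at 19.9 TPM in the C3G tumor and 13.6 TPM in the DMSO tumor, 1.46-fold higher (1.27 to 1.69). The scaffold gene Incenp stood at 37.2 TPM in the C3G tumor and 26.2 TPM in the DMSO tumor, 1.42-fold higher (1.27 to 1.59). The intervals of all 4 subunits overlapped, so counting error alone could not order them. Sgo1, the shugoshin that protects cohesion at the centromere, stood at 11.6 TPM in the C3G tumor and 5.87 TPM in the DMSO tumor, a ratio of 1.98 (1.56 to 2.53).

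Of the spindle genes, the kinases differed from each other. Plk1, which drives centrosome maturation and many later steps of mitosis, was higher by size, at 38.4 TPM in the C3G tumor and 18.5 TPM in the DMSO tumor, a ratio of 2.08 (1.75 to 2.49). Aurka, the kinase of the spindle poles, stood at 29.8 TPM in the C3G tumor and 24.1 TPM in the DMSO tumor, a ratio of 1.24 (1.06 to 1.45) whose interval did not meet that of Plk1. The TPM of Aurka was 0.777 times that of Plk1 in the C3G library and 1.30 times in the DMSO library. Tpx2, which activates Aurora A on microtubules, stood at 43.3 TPM in the C3G tumor and 26.8 TPM in the DMSO tumor, 1.62-fold higher (1.46 to 1.80), above the interval of its partner kinase. Nusap1, a microtubule bundling protein near chromosomes, stood at 32.8 TPM in the C3G tumor and 18.8 TPM in the DMSO tumor, 1.75-fold higher (1.53 to 1.99).

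**Figure D4:**
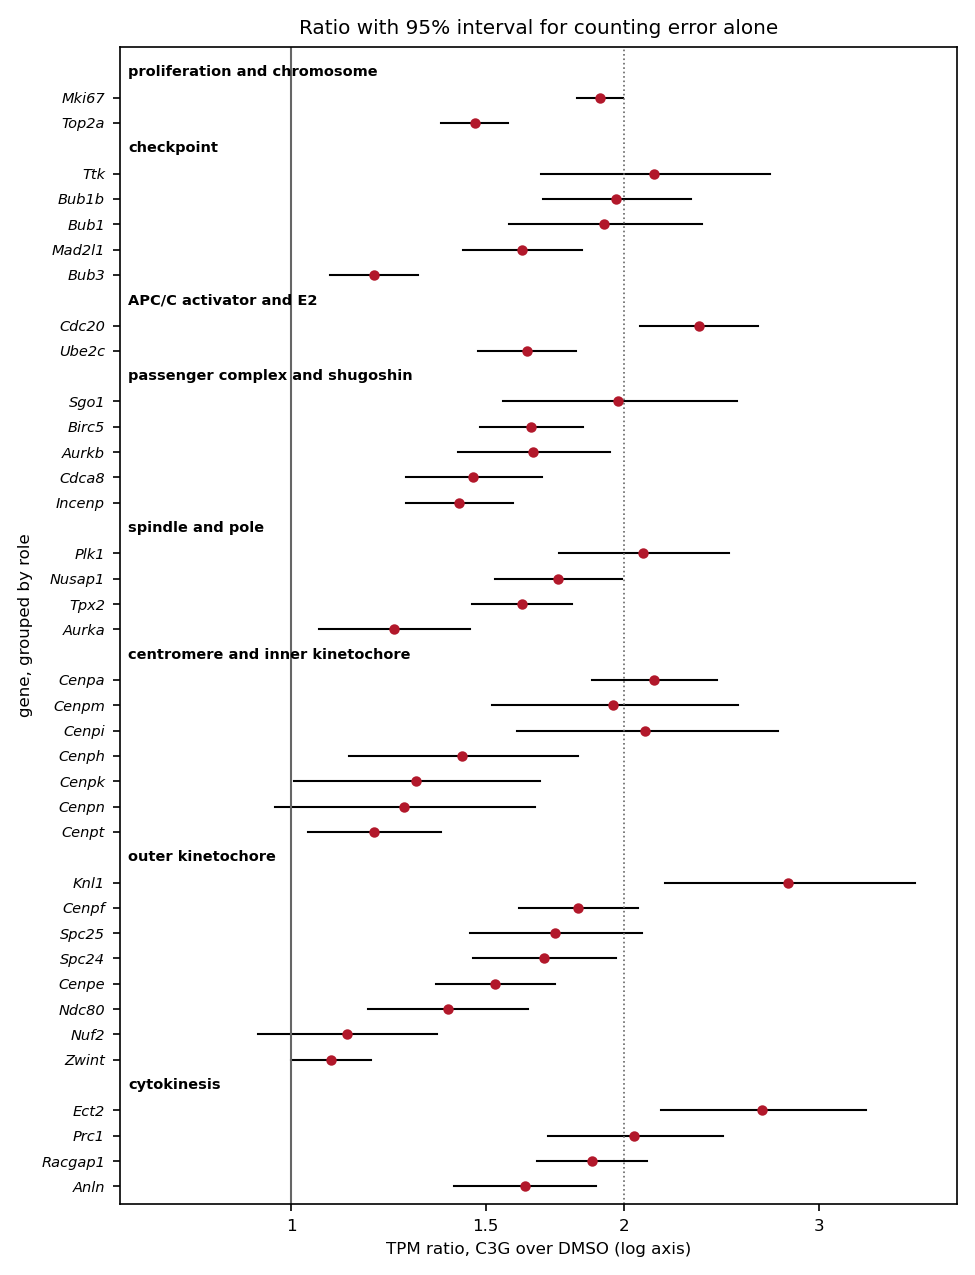
Plain TPM ratio of C3G over DMSO (log axis) for the 37 genes grouped by role, with bars for exact 95% intervals that cover counting error alone, a solid line at 1 and a dotted line at 2. Of the 37 bars, those of Nuf2 and Cenpn include 1, and those of Bub3, Aurka, Cenpt, Nuf2 and Zwint lie wholly below 1.5.

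Centromere and inner kinetochore genes were uneven. Cenpa, the centromeric histone itself, was higher by size, at 27.0 TPM in the C3G tumor and 12.7 TPM in the DMSO tumor, a ratio of 2.13 (1.87 to 2.43). Cenpm stood at 24.5 TPM in the C3G tumor and 12.6 TPM in the DMSO tumor, and Cenpi, its partner in a subcomplex of the inner kinetochore with Cenph and Cenpk, stood at 6.53 TPM in the C3G tumor and 3.13 TPM in the DMSO tumor, with a ratio of 1.95 (1.52 to 2.53) for Cenpm and 2.09 (1.60 to 2.75) for Cenpi. The other members of that subcomplex had smaller ratios, with Cenph at 20.5 TPM in the C3G tumor and 14.4 TPM in the DMSO tumor and Cenpk at 5.78 TPM in the C3G tumor and 4.45 TPM in the DMSO tumor. Cenpn, which binds the CENP-A nucleosome, stood at 8.07 TPM in the C3G tumor and 6.37 TPM in the DMSO tumor, and its interval of 0.968 to 1.66 included 1. Cenpt, which ties the inner kinetochore to NDC80, stood at 26.3 TPM in the C3G tumor and 22.1 TPM in the DMSO tumor, a ratio of 1.19 (1.04 to 1.37). By TPM, Cenpt was thus at 1.74 times the level of Cenpa in the DMSO library. It was about even in the C3G library, at 0.973 times. These 7 genes had a median log2 ratio of 0.49, the lowest of the 8 role groups. The smaller size was reached by 3 of 7, beside 15.9% of all genes.

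The outer kinetochore held the gene with the highest plain ratio and the gene with the lowest. Knl1, the outer kinetochore scaffold that carries BUB proteins, stood at 5.92 TPM in the C3G tumor and 2.11 TPM in the DMSO tumor. Its ratio of 2.81 (2.18 to 3.66) rests on 278 reads in the C3G library and 78 in the DMSO library. Zwint, which binds KNL1 directly, stood at 56.3 TPM in the C3G tumor and 51.8 TPM in the DMSO tumor, a ratio of 1.09 (1.00 to 1.18). The intervals of these binding partners lay far apart. The TPM of Zwint was 9.51 times that of Knl1 in the C3G library, against 24.6 times in the DMSO library. Zwint ranked 5 of the list by level in the C3G tumor and 2 in the DMSO tumor.

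The NDC80 complex is a rod of 4 proteins, and Nuf2, at the microtubule-binding end, had a smaller ratio than the genes of the other end. NUF2 pairs with NDC80 there. Ndc80 stood at 11.3 TPM in the C3G tumor and 8.13 TPM in the DMSO tumor, a ratio of 1.39 (1.18 to 1.64), and Nuf2 at 8.09 TPM in the C3G tumor and 7.20 TPM in the DMSO tumor, a ratio of 1.12 (0.934 to 1.36). The kinetochore end is made of SPC24 and SPC25. Spc24 stood at 40.1 TPM in the C3G tumor and 23.7 TPM in the DMSO tumor, a ratio of 1.69 (1.46 to 1.97), and Spc25 at 22.9 TPM in the C3G tumor and 13.2 TPM in the DMSO tumor, a ratio of 1.73 (1.45 to 2.08). The interval of Nuf2 did not meet those of Spc24 and Spc25, while that of Ndc80 overlapped both. Cenpe, a kinesin that carries chromosomes to the spindle equator, stood at 15.9 TPM in the C3G tumor and 10.4 TPM in the DMSO tumor. The large scaffold gene Cenpf stood at 10.02 TPM in the C3G tumor and 5.51 TPM in the DMSO tumor, 1.82-fold higher (1.61 to 2.06). Both lay inside the range of the list, Cenpe with a ratio of 1.53 (1.35 to 1.73).

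All 4 cytokinesis genes reached the smaller size, beside 15.9% of all genes, and their median log2 ratio was 0.88. Ect2, the exchange factor that activates RhoA at the cleavage furrow, had the highest log2 ratio of the list, 1.26, at 13.2 TPM in the C3G tumor and 4.97 TPM in the DMSO tumor, a plain ratio of 2.67 (2.16 to 3.31). Racgap1, the subunit of centralspindlin that recruits ECT2, stood at 25.9 TPM in the C3G tumor and 13.8 TPM in the DMSO tumor, 1.87-fold higher (1.67 to 2.10). Prc1, which bundles the central spindle, stood at 9.62 TPM in the C3G tumor and 4.71 TPM in the DMSO tumor, 2.04-fold higher (1.71 to 2.46). Its exons overlap those of Rccd1 on the other strand by 911 bases, 11.1% of their length, and Rccd1 stood at 6.25 TPM in the C3G tumor and 6.51 TPM in the DMSO tumor. Anln, the anillin scaffold of the contractile ring, stood at 11.2 TPM in the C3G tumor and 6.90 TPM in the DMSO tumor, 1.63-fold higher (1.41 to 1.89). The TPM of Ect2 was 1.18 times that of Anln in the C3G library and 0.720 times in the DMSO library.

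Across the list, the order of levels was nearly kept. Spearman's correlation of TPM between the libraries was 0.96 over the 37 genes, which share both libraries, and the correlation of mean level with log2 ratio was -0.07. The genes lie on 16 chromosomes, 8 of them on chromosome 2. No chromosome therefore held most of the list.

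Other genes of the same machinery had smaller log2 ratios as lists, and the differences from the 37 genes were not tested. Among 13 further genes of the inner kinetochore and of CENP-A loading, the median was 0.46 and 12 were above 0, beside 58.9% of all genes. Of the 11 that could be called, 5 reached the smaller size, beside 15.9% of all genes. They included Hjurp, the chaperone of CENP-A, at 92.0 TPM in the C3G tumor and 48.8 TPM in the DMSO tumor, a ratio of 1.89 (1.78 to 2.00), and Oip5, which helps to prepare the centromere for new CENP-A. Oip5 stood at 10.8 TPM in the C3G tumor and 5.32 TPM in the DMSO tumor, and 172 bases of its exons are shared with Nusap1 on the other strand. Cenpp, of the inner kinetochore, stood at 10.6 TPM in the C3G tumor and 5.13 TPM in the DMSO tumor. The ratio of Oip5 was 2.04, and the intervals of Hjurp and Oip5 overlapped that of Cenpa.

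Among 16 further outer kinetochore and checkpoint genes the median was 0.45, with 13 above 0 and 4 of 13 at the smaller size, beside the same 58.9% and 15.9% of all genes. These were Ska1 and Ska3, of the complex that holds kinetochores to growing and shrinking microtubules, Dsn1 of the MIS12 complex and Zwilch of the complex that recruits MAD proteins, with ratios from 1.65 for Ska3 to 1.84 for Ska1. Condensin genes, which compact chromosomes, had a median of 0.43, with all 8 above 0 and 4 at the smaller size, beside the same shares. Ncaph stood at 23.8 TPM in the C3G tumor and 12.4 TPM in the DMSO tumor, and Ncapg at 7.98 TPM in the C3G tumor and 4.21 TPM in the DMSO tumor. In the list of cohesin and separase, with a median of 0.49, 9 of 13 genes were above 0, near the 58.9% of all genes. The smaller size was reached by 6, beside 15.9% of all genes, and only Cdca5 was higher by size, beside 3.10%. Cdca5 encodes sororin, which protects cohesion until anaphase, and stood at 20.6 TPM in the C3G tumor and 8.88 TPM in the DMSO tumor, a ratio of 2.32 (1.80 to 3.02).

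The anaphase-promoting complex and its partners had counts near those of all genes. The median log2 ratio of 17 genes was 0.16, with 12 above 0 beside 58.9% of all genes, none higher by size beside 3.10%, and 2 at the smaller size beside 15.9%, Anapc1 and Cdc23. It was -0.01 with the length and GC trend removed. Fzr1, the activator that replaces CDC20 at the end of mitosis, stood at 32.2 TPM in the C3G tumor and 24.8 TPM in the DMSO tumor, a ratio of 1.30 (1.16 to 1.45), below the interval of Cdc20. Among 12 further cytokinesis genes the median was 0.47. The 8 of 12 above 0 are near the 58.9% of all genes, and 5 of 11 reached the smaller size, beside 15.9% of all genes. These were led by Kif4, a kinesin of chromosomes and the central spindle, at 12.9 TPM in the C3G tumor and 6.27 TPM in the DMSO tumor, and Kif20a, a kinesin that moves the passenger complex to the central spindle, at 8.01 TPM in the C3G tumor and 4.20 TPM in the DMSO tumor.

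Upstream regulators had a median of 0.45, with 17 of 19 above 0, none higher by size and 8 at the smaller size, beside 58.9%, 3.10% and 15.9% of all genes. Foxm1, the transcription factor of G2 and M phase genes, stood at 16.4 TPM in the C3G tumor and 8.18 TPM in the DMSO tumor, a ratio of 2.00 (1.70 to 2.36). Mybl2, which encodes the B-Myb protein that joins MuvB, stood at 8.49 TPM in the C3G tumor and 4.68 TPM in the DMSO tumor. Tfdp1, the partner of E2F proteins, and Nfyc, a subunit of NF-Y, had ratios of 1.81 (1.65 to 1.98) for Tfdp1 and 1.63 (1.49 to 1.79) for Nfyc. The other NF-Y subunits had smaller ratios, 1.26 (1.13 to 1.40) for Nfya and 0.986 (0.865 to 1.12) for Nfyb. The E2F genes of the list ran from 0.904 for E2f4 to 1.56 for E2f1. Foxm1, Mybl2, Tfdp1 and Nfyc had the largest log2 ratios of the list and were named for that. They do not stand for the list as a whole.

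**Figure D5:**
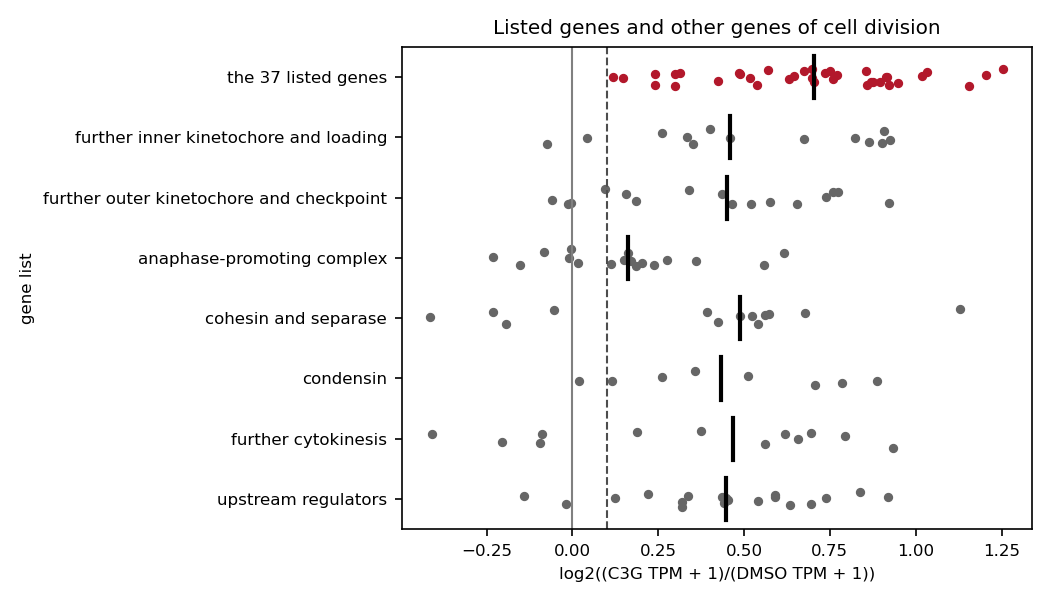
Log2 ratio of C3G over DMSO (horizontal axis) for the 37 mitotic genes (red) and for other genes of 7 lists with a mean of at least 1 TPM (grey), a point per gene with vertical scatter for legibility only, a thick bar at each median, a solid line at 0 and a dashed line at the all-gene median of 0.10. The 37 genes have the highest median, 0.70, and the anaphase-promoting complex the lowest, 0.16.

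Markers of the luminal epithelium, the tissue from which these tumors arise, did not move with the mitotic genes. Of 7 luminal markers 1 was above 0, and their sum was 5643 TPM in the C3G tumor and 7816 TPM in the DMSO tumor. The sum of Krt8, Krt18 and Epcam was 4588 TPM in the C3G tumor and 6198.5 TPM in the DMSO tumor. Its parts differed, with ratios of 0.626 for Krt18, 0.751 for Krt8 and 0.943 for Epcam. Scaling to that sum therefore depends on the markers chosen. With TPM scaled to that sum, 24 of the 37 mitotic genes were higher by size, beside 11.6% of all genes, and their median log2 ratio was 1.13. The median of all genes was 0.50 on this scale, and 85.5% of all calls by size were upward. Of the remaining marker lists, the 4 basal epithelial markers went both ways, with a median log2 ratio of -0.02 and sums of 447 TPM in the C3G tumor and 844 TPM in the DMSO tumor. Acta2 was lower by size, at 318 TPM in the C3G tumor and 712 TPM in the DMSO tumor, while Krt5 and Trp63 had log2 ratios of 0.41 and 0.29. The median was -0.20 for the 5 macrophage markers and -0.36 for the 4 fibroblast markers. Muscle and germ line markers were low except Mb, with Ckm and Dazl at 0 in both libraries, and medians of 0.11 over 2 measured muscle markers and -0.63 for 1 germ line marker.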

How the data were processed

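RNA was measured in 2 mammary tumor libraries, 1 per group. Per the submitters' processing notes, FastQC, MultiQC, Trimmomatic 0.38 and featureCounts 2.0.0 were used with build mm10; the aligner is not given in the sources used here. The authors deposited TPM values for 55536 genes, all matched to GENCODE M21, which gave symbols and exon-union lengths. TPM times length was a whole multiple of 1 step for 100% of values above 0, within 0.01 of a step, and 1 step was taken as a read. Reads give the intervals, which cover counting error only, since PCR copies without molecular tags are not separate molecules. The TruSeq kit, per the labels' protocols, does not mark strand.

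No test was run. Log2 ratios used a pseudocount of 1, and calls by size needed a higher TPM of 5. Lists were summarised over members averaging 1 TPM or more. Up to 4 genes per pathway or marker list are named, ranked by absolute log2 ratio among genes reaching 5 TPM in either library. All 37 mitotic genes are described. Further NF-Y and E2F genes, Epcam, Ckm and Dazl are given beside those named. Pttg1, Smc1a, Nipbl, Anapc13 and Rock1 were not named by the ranking and were chosen after their values were seen. The code was tested on simulated data. The members and lists were chosen with earlier results of these data known. Promoter windows are RefSeq's, 1 per gene, nearest to the GENCODE start. The start sites of the windows lay furthest from it for Cdca8 (2394 bases), Cenpt (1270 bases) and Cenpm (412 bases). Calculations used Python 3.11.15, numpy 2.4.6, pandas 2.3.3, scipy 1.17.1, patsy 1.0.2 and matplotlib 3.10.9. Single values of some genes named by this rule are not reported here.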

Additional observations from a re-analysis of the deposited data

How the results depend on the processing

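The filter settings moved the minimum mean TPM and the minimum for calls together. The median log2 ratio of the 37 genes ran from 0.57 (length and GC trend removed) to 0.72 (pseudocount 0.1) under the alternatives other than scaling to Krt8, Krt18 and Epcam, which gave 1.13. Between 35 and 37 genes were above 0, and with the stricter filter only 35 were measured. The 5 genes higher by size became 8 with a pseudocount of 0.1, 1 with a pseudocount of 5, 3 with the stricter filter, centring or the length and GC trend removed, and 24 with epithelial scaling. The share of all callable genes that was higher by size moved as well, from 3.10% in the main setting. It was 3.88%, 1.40%, 1.52%, 2.33%, 3.08% and 11.6% under these settings in the same order. The 27 at the smaller size, beside 15.9% of all callable genes, became 15 with the stricter filter, beside 12.8%. That filter left 21 genes that could be called. Without the 9 genes whose exons overlap another gene, chosen after seeing the data, 3 of 28 were higher by size, beside 3.10% of all callable genes. Of all genes, 396 were higher and 550 lower by size. The counts were 179 and 309 with a pseudocount of 5, 1086 and 1218 with no filter, 109 and 241 with the stricter filter, and 1505 and 255 with epithelial scaling. At the smaller size 2028 genes were higher, and 1252, 4226, 920 and 7143 under the same 4 settings, with 1297 after centring. Of 333 recomputed values of single genes 3 were below 0: Zwint at -0.0019 with centring and at -0.092 with the trend removed, and Nuf2 at -0.089 with the trend removed. The median of the anaphase-promoting complex was -0.0091 with the trend removed; the cause was not tested. No paired analysis was possible because there was 1 library per group, and no replicate could be left out. Counting limits the genes with fewest reads, Cenpi and Knl1, at 77 and 78 reads in the DMSO library.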

Other observations

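Several genes of chromosome cohesion, the anaphase-promoting complex and the contractile ring had the lower level in the C3G tumor, unlike the mitotic genes. They were chosen after their values were seen, and no difference was tested. Most genes of their lists went the other way. Of the cohesin and separase genes 9 of 13 had a log2 ratio above 0. So did 12 of 17 genes of the anaphase-promoting complex list and 8 of 12 further cytokinesis genes. Of all genes averaging 1 TPM or more, 58.9% had a log2 ratio above 0, and the lower quartile was -0.22. None of the lower genes given here reached a log2 ratio of -0.5, which 11.2% of all callable genes did. The levels are unscaled TPM, and scaling to Krt8, Krt18 and Epcam raises every ratio of C3G over DMSO. Their sum was 4588 TPM in the C3G tumor and 6198.5 TPM in the DMSO tumor. On that scale the lower genes given here no longer have a lower level in the C3G tumor. Securin (Pttg1), the inhibitor of separase that the anaphase-promoting complex destroys, stood at 25.1 TPM in the C3G tumor and 33.8 TPM in the DMSO tumor, a ratio of 0.743 (0.628 to 0.879), while separase itself (Espl1) stood at 8.01 TPM in the C3G tumor and 5.06 TPM in the DMSO tumor, 1.58-fold higher (1.33 to 1.89). In cohesin, the ring gene Smc1a stood at 58.7 TPM in the C3G tumor and 67.2 TPM in the DMSO tumor, and the cohesin loader Nipbl at 40.7 TPM in the C3G tumor and 48.0 TPM in the DMSO tumor. Anapc13, a small subunit of the anaphase-promoting complex, stood at 55.05 TPM in the C3G tumor and 64.8 TPM in the DMSO tumor. Rad21, which closes the cohesin ring and is cut by separase, went the other way, at 159 TPM in the C3G tumor and 98.9 TPM in the DMSO tumor. Rock1, a kinase that acts downstream of RhoA on myosin, stood at 32.9 TPM in the C3G tumor and 44.0 TPM in the DMSO tumor, a ratio of 0.748 (0.713 to 0.785), whereas the RhoA activator Ect2 was 2.67-fold higher.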
